A study of Macaca mulatta with 30 samples.

Results

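Collagen genes were followed in liver, in pancreas and in 3 salivary glands (parotid, submandibular and sublingual) of rhesus macaques (Macaca mulatta). The members are all genes of the deposited table whose symbol has the form COL, a number, A and a number, and whose mean reached at least 1 TPM (a share of all transcripts of a library, corrected for transcript length) in at least 1 tissue. Of 42 collagen genes by name, among 21292 genes in the table, 26 met that rule. The member nearest above the limit was COL26A1, with a mean of 1.19 TPM in liver, and the gene nearest below it was COL12A1, with a mean of 0.81 TPM in submandibular gland. Without animal 4, 25 of the 26 still met the rule and COL26A1 did not. COL7A1 and COL17A1 were not among the 42 genes found by name and so were not analysed here.

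The study sampled 6 animals, 4 females (animals 1 to 4) and 2 males (animals 5 and 6), and made 1 RNA sequencing library from each of 5 flash-frozen tissues per animal, 30 libraries in all. No treatment or genotype is given, and the labels state no age. Each library came from a few frozen sections of a biopsy, so it holds every cell type in those sections. The parotid sample of animal 3 is labelled as the right gland and the other parotid samples as the left.

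Collagens are secreted proteins in which chains wind into a triple helix. Fibrillar collagens form the rope-like fibrils of connective tissue, fibril-associated collagens sit on those fibrils, type VI builds beaded filaments around cells, and type IV builds the sheet of the basement membrane. Types XV and XVIII, the multiplexins, carry sugar chains and lie in or next to basement membranes; the C-terminal piece of type XVIII is endostatin. In glands and liver most fibrillar collagen is made by fibroblasts and related stromal cells, while basement membrane collagens also come from endothelium and epithelium.

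3 libraries from animal 4 stood apart from the others of their tissue. The summed TPM of 4 pancreatic acinar markers was 1568 in the pancreas of animal 4 and at least 62558 in the other pancreas libraries, and that of 5 salivary markers was 9796 in its submandibular gland and at least 213484 in the others. In its sublingual gland the salivary sum was 6713 TPM, against at least 36453 in the other 5, and 4 squamous and basal epithelial markers summed to 38512 TPM. Those 4 markers were also high in the sublingual gland of animal 1, at 14360 TPM, which was the library with the salivary sum of 36453. In the sublingual glands of animals 2, 3, 5 and 6 they summed to at most 328 TPM. Its pancreas and submandibular gland held high sums of adipocyte markers (18013 and 7840 TPM, against at most 1700 and 128 in the other 5 libraries) and of fibroblast markers (1782 and 5075 TPM, against at most 198 and 59.6). Smooth muscle and pericyte markers stood there at 4343 and 1837 TPM (at most 204 and 222 in the others), endothelial markers at 269 and 212 (at most 37.8 and 5.55) and blood markers at 6004 and 5848 (at most 227 and 153). The 8 skeletal muscle markers in the table summed to 91746 TPM in the parotid of animal 6 and to 26728 and 9645 TPM in the sublingual glands of animals 5 and 1. A library had 8477 to 13515 genes at 1 TPM or more, and its 10 most abundant genes took 11.1% to 81.4% of all TPM. Over the whole lists, the 6 fibroblast markers summed to 26.6 to 134 TPM in parotid, 34.1 to 299 in sublingual gland and 45.5 to 138 in liver, and the 6 adipocyte markers to 8.78 to 137, 46.0 to 251 and 22.5 to 122 TPM. The part of these other cell types in the collagen values was not tested, and in bulk libraries fewer cells of a type and less RNA per cell cannot be told apart.

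Type XVIII collagen was the leading collagen transcript of the liver. COL18A1 stood at 265 to 371 TPM in liver (median 337, mean 323 ± 41.8, SD, n = 6), where it made up a median of 63.3% of the TPM of all 26 members. In pancreas it ran from 13.4 to 44.4 TPM (median 19.4), in sublingual gland from 9.80 to 19.2 (median 13.9), in parotid from 2.51 to 3.58 (median 2.87) and in submandibular gland from 2.01 to 13.5 (median 2.57). Every liver library lay above every library of the other tissues. The highest pancreas value belonged to animal 3 and the highest submandibular value to animal 4.

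On the log2(TPM + 1) scale COL18A1 was lower than in liver by -6.35 in parotid, -6.10 in submandibular gland, -4.47 in sublingual gland and -3.88 in pancreas (SE 0.31 each, 6 of 6 animals). The limma adjusted p-values were 1.84e-15, 4.55e-15, 4.37e-12 and 9.81e-11. Without animal 4 the differences were -6.34, -6.38, -4.34 and -3.84. COL18A1 also separated the tissues outside the liver: it was lower than in pancreas in parotid (-2.47, limma adjusted p = 2.59e-06) and in submandibular gland (-2.22, limma adjusted p = 1.68e-05), and lower than in sublingual gland in parotid (-1.88, limma adjusted p = 0.000108) and in submandibular gland (-1.63, limma adjusted p = 0.000796). Parotid did not overlap with pancreas or sublingual gland. Submandibular gland overlapped with both through animal 4 alone, and without that animal the groups were separate and the 4 differences were -2.501, -2.55, -1.99 and -2.04.

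Hepatocyte transcripts were read beside this gene, since every library listed some of them. The median sum of 5 hepatocyte markers, albumin among them, was 0.456% of its liver median in parotid, 0.557% in submandibular gland, 0.748% in sublingual gland and 1.67% in pancreas. COL18A1 was at 0.851%, 0.764%, 4.13% and 5.77% of its liver median in the same tissues. In each of the 4 tissues the percentage of COL18A1 was the higher of the pair. In the pancreas of animal 3 the hepatocyte markers reached 4.85% of their liver median, COL18A1 13.2% and COL27A1 31.2%. The part of these transcripts in the collagen values was not tested.

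COL15A1, the other multiplexin, was highest in pancreas and lowest in liver. In pancreas it ran from 4.52 to 25.9 TPM (median 6.82) and in liver from 0.224 to 0.346 TPM (median 0.285), with no overlap. Its medians were 1.21 TPM in parotid (0.538 to 5.21), 0.938 in submandibular gland (0.526 to 15.3) and 0.824 in sublingual gland (0.284 to 6.02). The highest values were those of animal 4 in pancreas and submandibular gland, animal 6 in parotid and animal 5 in sublingual gland, which are libraries with high adipocyte or muscle marker sums. These libraries also had the highest smooth muscle and pericyte sums and the highest endothelial sums of their tissues, and high fibroblast sums.

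COL15A1 was higher in pancreas than in liver by 2.83 (SE 0.44, limma adjusted p = 1.29e-05, 6 of 6 animals), and by 2.52 without animal 4. It was lower than in pancreas in parotid (-1.91, limma adjusted p = 0.00362), submandibular gland (-1.75, limma adjusted p = 0.00975) and sublingual gland (-2.08, limma adjusted p = 0.00145), with 6, 6 and 5 of 6 animals in that direction, and by -1.57, -1.96 and -1.71 without animal 4. In submandibular gland it exceeded liver by 1.08 (limma adjusted p = 0.0449). That call was lost without animal 4 (0.57, limma adjusted p = 0.149), although every submandibular library still lay above every liver library, and it passed without animal 4 where trimmed-mean scaling was used as well (1.10, limma adjusted p = 0.00222).

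**Figure D1:**
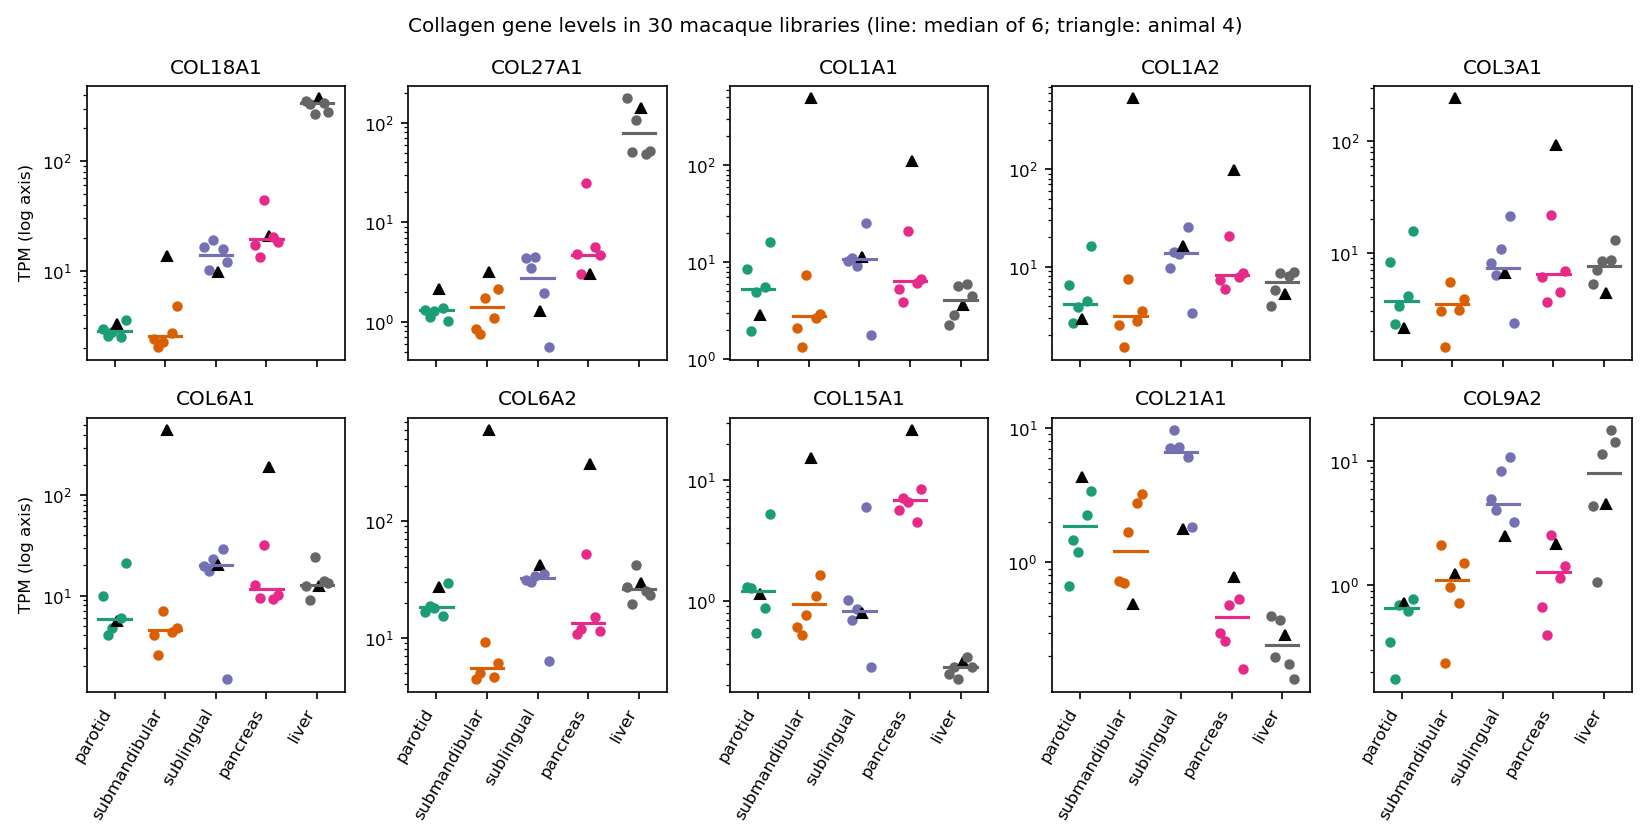
Levels of 10 collagen genes in TPM (vertical log axes) in the 30 libraries, by tissue. Each point is 1 animal, the line is the median of 6 and triangles mark animal 4. COL18A1 and COL27A1 lie highest in all 6 livers, COL15A1 in pancreas and COL21A1 in sublingual gland, while COL1A1, COL1A2, COL3A1, COL6A1 and COL6A2 have their highest values in the submandibular gland and pancreas of animal 4.

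Among the fibrillar genes, COL27A1 was a liver transcript. It encodes type XXVII collagen, which is best known from cartilage. Its liver values were 175, 51.2, 106, 142, 48.7 and 51.7 TPM in animals 1 to 6 (median 79.1), and its median was 4.73 TPM in pancreas (2.99 to 24.7), 2.73 in sublingual gland (0.554 to 4.48), 1.40 in submandibular gland (0.763 to 3.17) and 1.31 in parotid (1.03 to 2.13). No library of another tissue reached the lowest liver value. Against liver the log2 differences were -5.17 in parotid, -5.09 in submandibular gland, -4.66 in sublingual gland and -3.66 in pancreas (SE 0.38 each, 6 of 6 animals, limma adjusted p 8.39e-12, 1.25e-11, 8.49e-11 and 1.12e-08). Against pancreas it was lower by -1.51 in parotid (limma adjusted p = 0.00665) and by -1.42 in submandibular gland (limma adjusted p = 0.0136). Without animal 4 the 4 differences from liver were -5.10, -5.08, -4.40 and -3.36 and those from pancreas -1.74 and -1.72.

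The chains of the main connective tissue fibrils behaved differently. COL1A1 and COL1A2 encode the chains of type I collagen and COL3A1 that of type III. COL1A1 had its lowest, median and highest values at 2.26, 4.04 and 5.91 TPM in liver, 3.87, 6.38 and 110 in pancreas, 1.94, 5.27 and 16.2 in parotid, 1.78, 10.7 and 25.4 in sublingual gland, and 1.32, 2.77 and 489 in submandibular gland. All tissues overlapped, and the values of 489 and 110 TPM are those of animal 4. Without them the highest values were 7.30 TPM in submandibular gland and 20.8 TPM in pancreas.

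COL1A2 was also highest by median in sublingual gland, at 13.9 TPM, followed by pancreas (8.26), liver (6.94), parotid (4.16) and submandibular gland (3.16), with 530 TPM in the submandibular gland and 97.5 TPM in the pancreas of animal 4. Medians of COL3A1 were 7.41, 6.51, 7.70, 3.71 and 3.47 TPM in the same order of tissues, and its values in those libraries of animal 4 were 243 and 93.3 TPM. The summed TPM of the 3 genes had a median of 32.6 in sublingual gland, 20.5 in pancreas, 19.1 in liver, 13.1 in parotid and 9.40 in submandibular gland. It was 48.0 in the parotid of animal 6 and 72.4 in the sublingual gland of animal 5, the highest of each tissue and the libraries with its highest muscle marker sums. The same parotid library also held its tissue's highest fibroblast (134 TPM), smooth muscle and pericyte (1966) and endothelial (8.38) sums. That sublingual library held its tissue's highest adipocyte (251 TPM), smooth muscle and pericyte (843) and endothelial (28.6) sums. Its fibroblast sum of 290 TPM was below only the 299 of animal 4.

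None of COL1A1, COL1A2 and COL3A1 passed the limma threshold in any of the 10 comparisons with 6 animals and no further scaling, with standard errors of 0.75 to 0.80 on the log2 scale. For COL1A1, pancreas against liver gave 1.35 (limma adjusted p = 0.214), with pancreas higher in 6 of 6 animals, and submandibular gland against liver gave 0.80 (limma adjusted p = 0.413). With trimmed-mean scaling, which aligns the middle of the genes between libraries, both passed, at 1.64 (limma adjusted p = 0.0362) and 1.504 (limma adjusted p = 0.0446). Without animal 4 and without scaling, the difference between submandibular gland and liver turned from 0.80 to -0.38. It stayed outside the threshold (limma adjusted p = 0.467). Against sublingual gland, leaving out animal 4 made all 3 genes lower in submandibular gland, by -1.38 for COL1A1 (limma adjusted p = 0.0153), -1.54 for COL1A2 (0.00394) and -1.12 for COL3A1 (0.0344). With trimmed-mean scaling as well, these were -0.33, -0.49 and -0.07, and none of them passed (limma adjusted p = 0.544, 0.276 and 0.903).

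Type V chains regulate the start and width of type I fibrils. COL5A1 had medians of 0.989 TPM in pancreas to 4.21 TPM in sublingual gland, COL5A2 of 0.770 in submandibular gland to 2.26 in sublingual gland, and COL5A3 of 0.376 in submandibular gland to 1.30 in sublingual gland. In the submandibular gland of animal 4 they stood at 78.3, 32.1 and 49.9 TPM, and in its pancreas at 29.1, 13.7 and 69.0 TPM. None passed the limma threshold with all animals and no further scaling; the nearest was COL5A3 in pancreas against liver (1.61, limma adjusted p = 0.0617, higher in 6 of 6 animals). With trimmed-mean scaling that difference passed (1.56, limma adjusted p = 0.0140), as did COL5A1 in submandibular gland against liver (1.10, limma adjusted p = 0.0334). Apart from animal 4, COL5A1 was at 0.661 to 1.74 TPM in submandibular gland and at 1.00 to 1.77 TPM in liver. Of those animals only animal 6 had the higher value in submandibular gland. Without animal 4, COL5A1 was higher in sublingual gland than in liver by 0.92 (limma adjusted p = 0.0369) and COL5A2 lower in submandibular gland than in liver by -0.74 (limma adjusted p = 0.0128).

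Type VI collagen, the filament collagen next to basement membranes, was the largest class by median share in parotid and also in sublingual gland. COL6A1, COL6A2 and COL6A3 together made up a median of 41.7% of the TPM of all members in parotid. The median was 31.9% in sublingual gland, 29.1% in pancreas, 28.5% in submandibular gland and 7.66% in liver. COL6A2 ran from 15.5 to 29.7 TPM in parotid (median 18.4), 4.42 to 595 in submandibular gland (median 5.58), 6.30 to 42.1 in sublingual gland (median 32.3), 10.8 to 305 in pancreas (median 13.5) and 19.7 to 41.8 in liver (median 26.2). Apart from animal 4, whose values were 595 and 305 TPM, submandibular gland was at 9.31 TPM or below and did not overlap with parotid, pancreas or liver.

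With 6 animals COL6A2 passed in no comparison, with or without trimmed-mean scaling. Without animal 4 it was lower in submandibular gland than in liver (-2.04, limma adjusted p = 5.87e-05), sublingual gland (-1.88, limma adjusted p = 0.000304), parotid (parotid higher by 1.59, limma adjusted p = 0.0471) and pancreas (-1.38, limma adjusted p = 0.0084), in 5 of 5 animals each. Trimmed-mean scaling without animal 4 left each of these past the threshold, at -0.74, -0.73, 1.54 and -0.72. COL6A1 had a median of 20.003 TPM in sublingual gland, 12.8 in liver, 11.5 in pancreas, 5.79 in parotid and 4.55 in submandibular gland. Its difference between submandibular gland and liver was -1.47 without animal 4 (limma adjusted p = 0.0128) and -0.23 with trimmed-mean scaling as well (limma adjusted p = 0.637). COL6A3 was lower than its partners, with medians of 0.580 to 1.67 TPM, and reached 70.0 TPM in the submandibular gland of animal 4. In the sublingual gland of animal 6 the class was low, with COL6A1 at 1.46 TPM and COL6A2 at 6.30 TPM, and its fibroblast marker sum of 34.1 TPM was the lowest of that tissue.

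The basement membrane chains COL4A1 and COL4A2, which assemble with each other, had medians of 3.38 and 4.79 TPM in pancreas, 2.64 and 6.23 in liver, 1.22 and 3.83 in parotid, 1.40 and 3.64 in sublingual gland, and 1.30 and 2.67 in submandibular gland. In animal 4 they reached 58.5 and 88.2 TPM in submandibular gland and 48.8 and 91.3 TPM in pancreas. Neither passed the limma threshold with 6 animals and no further scaling. With trimmed-mean scaling COL4A1 was higher in pancreas than in liver (1.24, limma adjusted p = 0.0285), and both were lower in sublingual gland than in pancreas (-1.54 and -1.20, limma adjusted p = 0.0137 and 0.0373). Without animal 4 both were lower in submandibular gland than in liver, by -0.85 (limma adjusted p = 0.0403) and -0.98 (limma adjusted p = 0.0266), and with trimmed-mean scaling as well both fell outside the threshold at 0.03 and 0.14.

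COL4A5, a chain of the specialised type IV network, was highest in liver, at 0.886 to 2.44 TPM (median 1.501). Its medians elsewhere were 0.220 TPM in parotid, 0.169 in submandibular gland, 0.746 in sublingual gland and 0.474 in pancreas. COL4A5 reached 1 TPM in 6 libraries, the fewest the expression filter allows. These were the livers of animals 1, 2, 4, 5 and 6 and the sublingual gland of animal 1. It therefore entered the tests mainly through liver, and its calls against liver are not independent of the filter. Against liver it was lower by -1.03, -1.01, -0.53 and -0.69 (SE 0.16, limma adjusted p 9.93e-06, 1.56e-05, 0.0148 and 0.00176). The first 2 groups did not overlap with liver. Without animal 4 it no longer met the expression filter and was not tested, and the groups of those 2 glands and pancreas then all lay below liver.

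The fibril-associated genes differed in where they were highest by mean: COL21A1, COL16A1 and COL9A3 in sublingual gland, COL9A2 and COL22A1 in liver, COL9A1 in pancreas and COL14A1 in submandibular gland. Without animal 4, COL14A1 was highest in sublingual gland, with a mean of 1.73 TPM, and the others kept their tissue. COL21A1, which encodes type XXI collagen, stood in sublingual gland at 7.14, 9.61, 7.19, 1.78, 6.11 and 1.83 TPM in animals 1 to 6, with a median of 1.86 TPM in parotid (0.664 to 4.34), 1.21 in submandibular gland (0.494 to 3.21), 0.392 in pancreas (0.161 to 0.781) and 0.244 in liver (0.135 to 0.400). Sublingual gland did not overlap with pancreas or liver, and its low values in animals 4 and 6 overlapped with the other glands. COL21A1 was higher than in liver by 2.21 in sublingual gland (SE 0.34, limma adjusted p = 7.69e-06), by 1.24 in parotid (limma adjusted p = 0.00334) and by 0.93 in submandibular gland (limma adjusted p = 0.0251), in 6 of 6 animals each. It was higher than in pancreas by 2.05 in sublingual gland (limma adjusted p = 7.55e-05) and by 1.08 in parotid (limma adjusted p = 0.0309). Its lower level in parotid (-0.97, limma adjusted p = 0.0248) and submandibular gland (-1.29, limma adjusted p = 0.00732) than in sublingual gland was lost with trimmed-mean scaling (-0.20 and -0.56, limma adjusted p = 0.706 and 0.228). Without animal 4 the 3 differences from liver were 2.44, 1.08 and 1.07, the 2 from pancreas 2.34 and 0.98, and the 2 from sublingual gland -1.36 each, all past the limma threshold.

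The 3 chains of type IX collagen, which coats cartilage fibrils, did not share one pattern. COL9A2 was high in liver (1.06 to 17.8 TPM, median 8.02) and sublingual gland (2.49 to 10.9, median 4.53) and low in pancreas (0.400 to 2.56, median 1.29), submandibular gland (0.235 to 2.10, median 1.10) and parotid (0.175 to 0.782, median 0.657). Against liver it was lower by -2.34 in parotid (SE 0.34, limma adjusted p = 2.80e-06), -1.93 in submandibular gland (4.53e-05) and -1.78 in pancreas (0.000178), in 6 of 6 animals each, and the liver of animal 2, at 1.06 TPM, overlapped with the last 2. Sublingual gland exceeded pancreas by 1.42 (limma adjusted p = 0.00435). Against sublingual gland, parotid was lower by -1.98 (limma adjusted p = 0.000148) and submandibular gland by -1.57 (0.0019), with no overlap. Without animal 4 these 6 differences were -2.47, -2.05, -1.97, 1.67, -2.17 and -1.76.

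COL9A1 was low in liver (0.0438 to 0.158 TPM) and had medians of 1.00 TPM in parotid, 0.361 in submandibular gland, 1.60 in sublingual gland and 1.08 in pancreas, with every library of these 4 tissues above every liver library. It was higher than in liver by 0.92 in parotid (limma adjusted p = 0.00593), 1.09 in sublingual gland (0.00261) and 1.07 in pancreas (0.00351); submandibular gland gave 0.45 (limma adjusted p = 0.166), and 0.69 with trimmed-mean scaling (limma adjusted p = 0.0190). The same 4 values were 0.95, 1.25, 1.23 and 0.48 without animal 4. COL9A3 was highest in sublingual gland (0.664 to 5.33 TPM, median 1.69) and had medians of 0.168 to 0.525 TPM elsewhere. There it exceeded liver by 0.90 (limma adjusted p = 0.00767) and pancreas by 1.06 (0.00481), and parotid and submandibular gland were lower than sublingual gland by -1.33 (0.000441) and -1.38 (0.000597). ACAN, which encodes the main proteoglycan of cartilage, had a median of at most 0.00297 TPM in each tissue. The list of 5 cartilage markers that holds it, with MATN1, MATN3, SNORC and CHAD, did not share that low level. Its sum was 19.8 to 88.2 TPM in liver, 2.35 to 84.3 in sublingual gland and 6.71 to 45.9 in pancreas. In submandibular gland it was 7.72 to 17.3 TPM and in parotid 1.26 to 3.85 TPM.

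COL16A1 and COL14A1 encode types XVI and XIV, which attach to fibrils, and COL22A1 type XXII, known from tissue junctions. COL16A1 had a median of 3.81 TPM in sublingual gland (1.55 to 7.94) and 0.952 TPM in liver (0.497 to 1.83), a difference of 1.30 (SE 0.39, limma adjusted p = 0.0115, 6 of 6 animals) that was 1.32 without animal 4. Without that animal it was also higher in sublingual gland than in pancreas (1.22, limma adjusted p = 0.000140). COL14A1 ran from 0.410 to 66.3 TPM in submandibular gland (median 1.62) and from 0.195 to 0.888 TPM in liver (median 0.267); the difference of 1.58 (SE 0.51, limma adjusted p = 0.0131, 6 of 6 animals) was 0.74 without animal 4 (limma adjusted p = 0.0192). COL22A1 was widely spread in liver (0.278 to 8.04 TPM, median 1.43) and was lower in parotid (median 0.0413, -1.36, limma adjusted p = 0.00138) and sublingual gland (median 0.149, -1.05, limma adjusted p = 0.0163), the second in 4 of 6 animals. These were -1.39 and -1.02 without animal 4.

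COL8A1, a short chain that forms networks under endothelium, was highest in sublingual gland (0.876 to 3.36 TPM, median 1.31). It reached 1 TPM in 6 libraries, the fewest the expression filter allows. These were the sublingual glands of animals 2 to 6 and the pancreas of animal 4. COL8A1 therefore entered the tests mainly through sublingual gland, and its calls there are not independent of the filter. Its level in sublingual gland was above liver by 0.75 (limma adjusted p = 0.0142) and pancreas by 0.87 (0.0111), and parotid and submandibular gland were lower than sublingual gland by -1.02 (0.00166) and -0.98 (0.00374). Sublingual gland overlapped with pancreas alone, through animal 4. Without that animal COL8A1 and COL9A3 did not meet the expression filter and were not tested. The other 3 members, COL23A1, COL28A1 and COL26A1, fell below the expression filter and were tested only in a fit without it. The transmembrane collagen gene COL23A1 had medians of 1.35 TPM in sublingual gland (0.667 to 6.73), 0.579 in parotid, 0.522 in submandibular gland, 0.0322 in pancreas and 0.0733 in liver, and sublingual gland exceeded liver by 1.48 in that fit (limma adjusted p = 8.77e-05). COL28A1, which encodes type XXVIII, known from peripheral nerve, was at 2.99, 7.995, 2.12, 0.059, 0.793 and 2.03 TPM in the sublingual glands of animals 1 to 6 and at medians of 0.0794 to 0.298 TPM in the other tissues (1.45 against liver, limma adjusted p = 0.000345). COL26A1 had a median of 1.08 TPM in liver (0.0384 to 2.82) and medians of at most 0.140 elsewhere, where its highest values were 3.15 TPM in the parotid of animal 6 and 0.648 TPM in the sublingual gland of animal 5. In the fit without the filter it was lower than in liver in submandibular gland (-0.95, limma adjusted p = 0.00693). The same held for sublingual gland (-0.77, 0.0349) and pancreas (-0.83, 0.0250), while parotid gave -0.55 (limma adjusted p = 0.101).

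**Figure D2:**
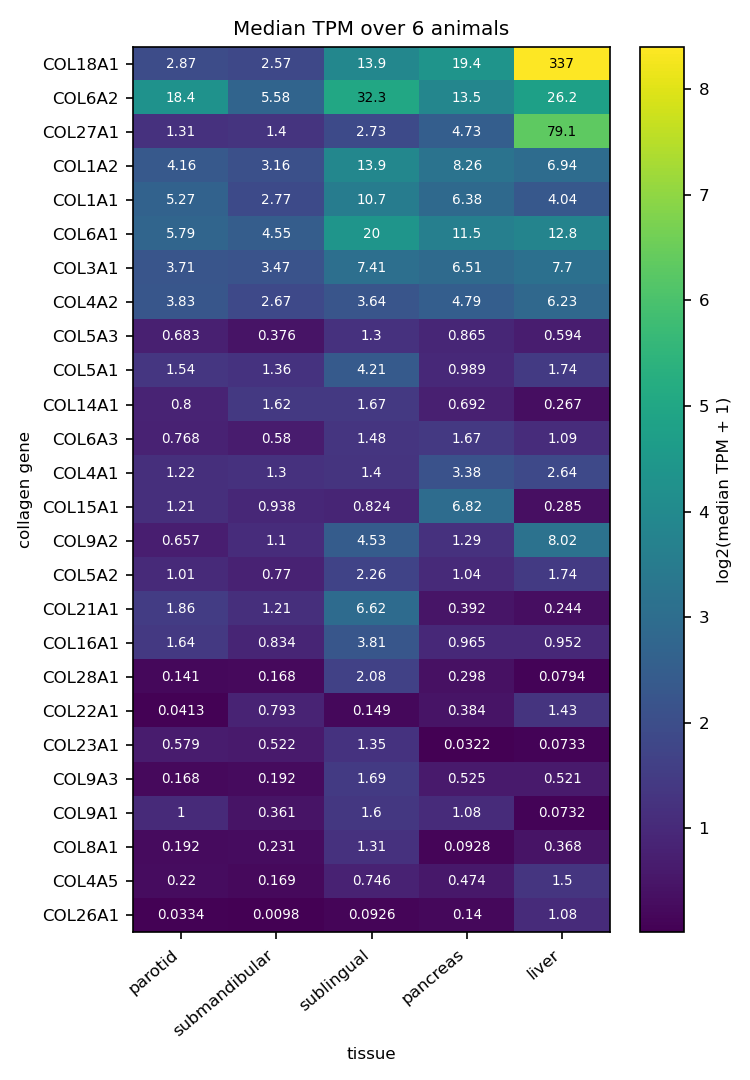
Median TPM over 6 animals for each of the 26 collagen genes (vertical) in each tissue (horizontal); colour is log2(median TPM + 1). COL18A1 at 337 and COL27A1 at 79.1 in liver are the highest cells, and sublingual gland holds the highest medians of COL6A2, COL6A1, COL1A2, COL1A1 and COL21A1.

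By mean level with all animals, 9 members were highest in submandibular gland, 6 in sublingual gland, 6 in liver, 5 in pancreas and 0 in parotid. Without animal 4 the count for submandibular gland was 0 and that for sublingual gland 14, with 7 in liver and 5 in pancreas. The 5 pancreas genes were COL4A1, COL4A2, COL5A3, COL9A1 and COL15A1 in both cases. In the submandibular gland of animal 4, 18 of 26 members had their highest value of that tissue, 14 of them more than 10 times the median of the other 5 animals; the 8 that did not were COL8A1, COL9A1, COL9A2, COL9A3, COL21A1, COL22A1, COL23A1 and COL26A1. In its pancreas 19 were highest and 15 exceeded 10 times the median of the others.

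Against liver, the 23 tested members were compared with the 13550 tested genes. In parotid 2 members were higher (4.61% of all genes) and 5 lower (53.4%), with a median log2 difference of -0.39 over the members and -0.84 over all genes. In submandibular gland 3 were higher (5.68%) and 4 lower (45.1%), with medians of -0.02 and -0.70. Sublingual gland had 5 higher (12.8%) and 4 lower (18.7%), with medians of 0.26 and -0.10, and pancreas 2 higher (6.76%) and 4 lower (23.6%), with medians of 0.53 and -0.36. COL18A1, COL27A1 and COL4A5 were lower in all 4 tissues, and COL4A5 had passed the expression filter mainly through liver.

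Without animal 4, 20 members were tested, and the calls against liver were 3 higher (5.17% of 12777 genes) and 4 lower (63.2%) in parotid, 5 (15.5%) and 3 (21.8%) in sublingual gland, 2 (5.86%) and 9 (68.5%) in submandibular gland, and 2 (7.52%) and 3 (41%) in pancreas. TPM values are shares of a fixed total, and trimmed-mean scaling moved the median of all genes from -0.84, -0.70, -0.10 and -0.36 to 0.00, -0.02, 0.01 and -0.04. With it the members had 4 higher and 5 lower in parotid (20% and 23.5% of all genes), 7 and 4 in submandibular gland (20.8% and 25.9%), 5 and 4 in sublingual gland (20.4% and 23.7%) and 7 and 4 in pancreas (15.2% and 21.6%). COL18A1, COL27A1 and COL4A5 were again lower in all 4. Without animal 4 and with that scaling, 11 of 20 members were higher in parotid than in liver (21.1% of all genes) and 4 lower (22.8%). With 6 animals, the genes that the scaling added above liver in pancreas were COL1A1, COL4A1, COL5A3, COL14A1 and COL16A1. Each had its highest pancreas value in animal 4, at 110, 48.8, 69.0, 14.8 and 17.5 TPM. Without animal 4 and with that scaling, 6 of 20 members were higher in pancreas than in liver (2090 of 12777 genes) and 3 lower (2888).

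**Figure D3:**
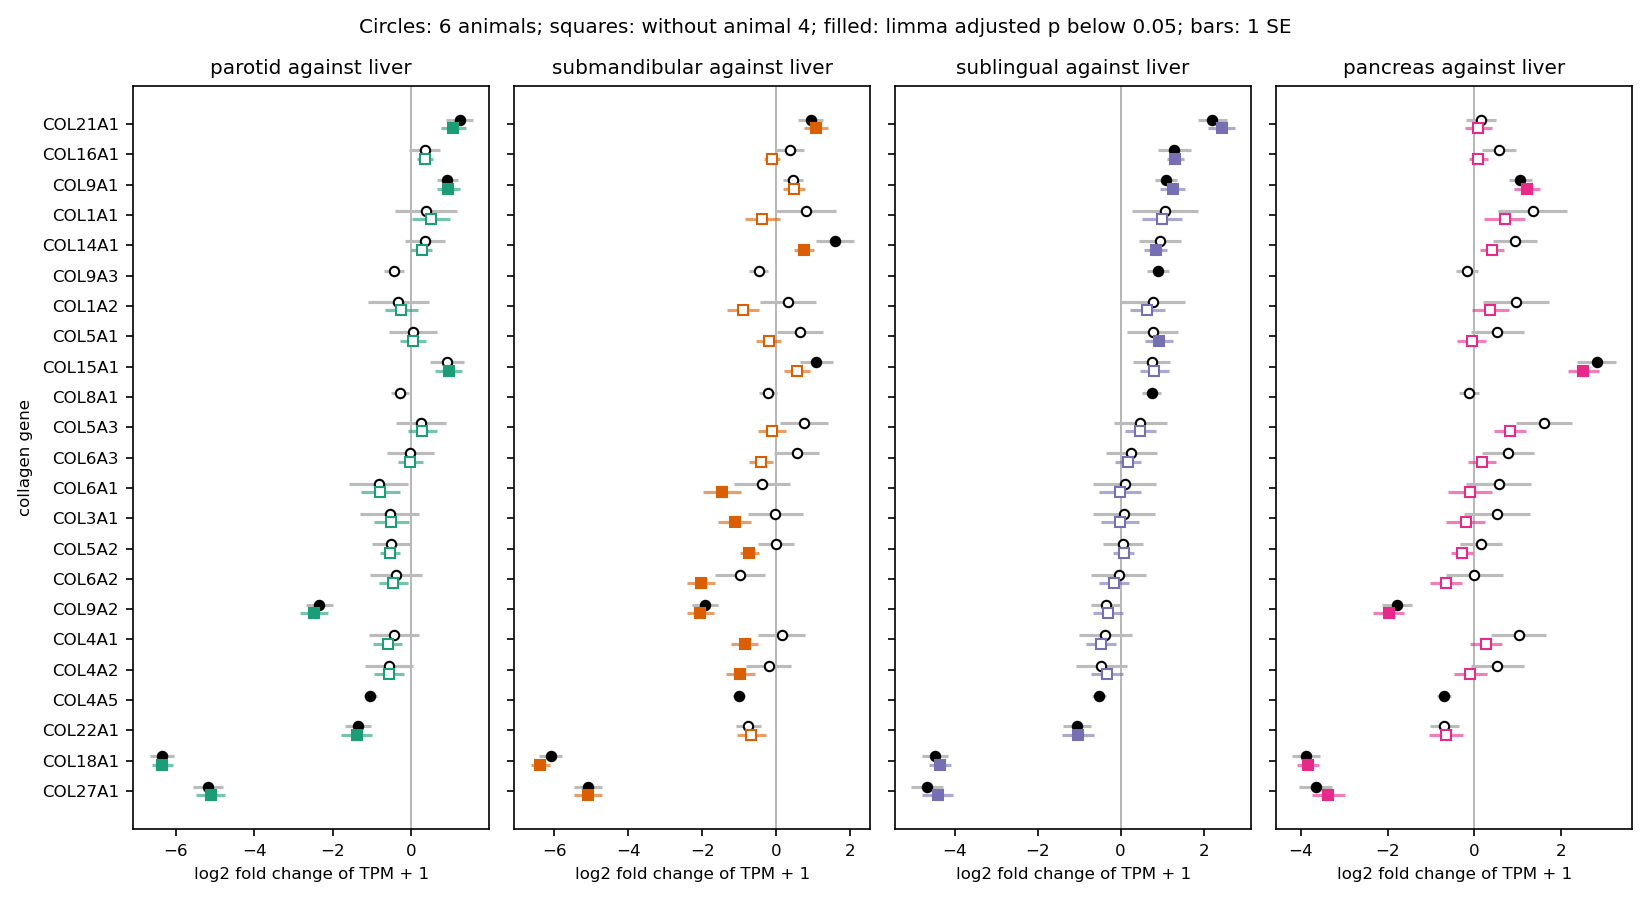
Log2 fold change of TPM + 1 against liver (horizontal) for the 23 tested collagen genes (vertical) in 4 tissues; circles are 6 animals, squares 5 animals without animal 4, filled symbols have a limma adjusted p below 0.05, and bars are 1 SE. COL18A1 and COL27A1 lie far left in each panel under both, and in submandibular gland the squares of COL6A1, COL6A2, COL3A1, COL5A2, COL4A1 and COL4A2 lie to the left of their circles.

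Against pancreas, parotid had 1 member higher (2.24% of all genes) and 3 lower (13.6%), submandibular gland 0 higher (2.25%) and 3 lower (7.46%, with 5 at an unadjusted p below 0.05 in either direction), and sublingual gland 4 higher (10.4%) and 1 lower (3.51%). COL15A1 was lower in each, COL18A1 and COL27A1 were lower in parotid and submandibular gland, and the 4 above pancreas in sublingual gland were COL21A1, COL9A2, COL9A3 and COL8A1. Without animal 4 submandibular gland had 1 higher (4.1%) and 7 lower (26.6%), adding COL1A2, COL4A1, COL6A1 and COL6A2 to the lower genes. With trimmed-mean scaling 5 members were lower in sublingual gland than in pancreas (9.97% of all genes).

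Among the glands, parotid had 0 of 23 members above submandibular gland (0.133% of all genes) and 0 below it (0.214%) by limma, with 1 at an unadjusted p below 0.05. Without animal 4, 1 of 20 was above it, COL6A2 (0.188%). Parotid had 6 members below sublingual gland (40.6%) and 0 above (0.893%), and submandibular gland had 6 below (27.2%) and 0 above (0.753%), with 7 and 8 at an unadjusted p below 0.05 in either direction. Both sets of 6 were COL18A1, COL9A2, COL21A1, COL9A3, COL8A1 and COL4A5, of which COL21A1 and COL4A5 were lost with trimmed-mean scaling. COL8A1 had passed the expression filter mainly through sublingual gland. Without animal 4, submandibular gland had 12 of 20 members below sublingual gland (65.8%), and with trimmed-mean scaling as well it had 4 below (9.21%) and 1 above (8.16%). Over all 10 comparisons with 6 animals and no further scaling, 11 of the 23 tested members were called in none: all those of types I, III, V and VI, with COL4A1 and COL4A2.

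Ratios between collagen chains, which share a library, were compared as levels in TPM and without a test. The ratio of COL3A1 to COL1A1 sets type III against type I, and the others compare chains of the same type. COL3A1 over COL1A1 was 1.22 to 2.92 in liver (median 1.89) and had medians of 0.823 to 1.12 elsewhere, with the highest value outside liver at 1.46 in submandibular gland, so that the ranges overlapped. The lowest liver value was that of animal 4. Without that animal liver ran from 1.461 to 2.92 and the highest value elsewhere was 1.459, so that the ranges just missed each other. COL1A1 over COL1A2 was 0.494 to 0.727 in liver (median 0.613) and had medians of 0.739 to 1.13 in the other tissues. COL6A2 over COL6A1 had a median of 3.19 in parotid (1.39 to 4.88), 1.97 in liver, 1.63 in sublingual gland, 1.43 in pancreas and 1.31 in submandibular gland. COL4A1 over COL4A2 was below 1 in every library, with a median of 0.683 in pancreas (0.533 to 0.711) and 0.384 to 0.460 elsewhere. COL5A3 over COL5A1 was 0.664 to 2.61 in pancreas (median 1.04), and the medians of the other tissues were 0.326 to 0.423. Without animal 4 the medians of COL1A1 over COL1A2 were 0.567 in liver and 0.766 to 1.26 elsewhere. Those of COL6A2 over COL6A1 were then 2.57 in parotid and 1.26 to 1.78 elsewhere. For COL4A1 over COL4A2 they were 0.699 in pancreas and 0.333 to 0.522 elsewhere. For COL5A3 over COL5A1 they were 0.892 in pancreas and 0.289 to 0.458 elsewhere. In a RefSeq gene table (assembly T2T-MMU8v2.0) COL4A1 and COL4A2, COL6A1 and COL6A2, and COL3A1 and COL5A2 are neighbouring genes, and all 26 members were found there by symbol.

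**Figure D4:**
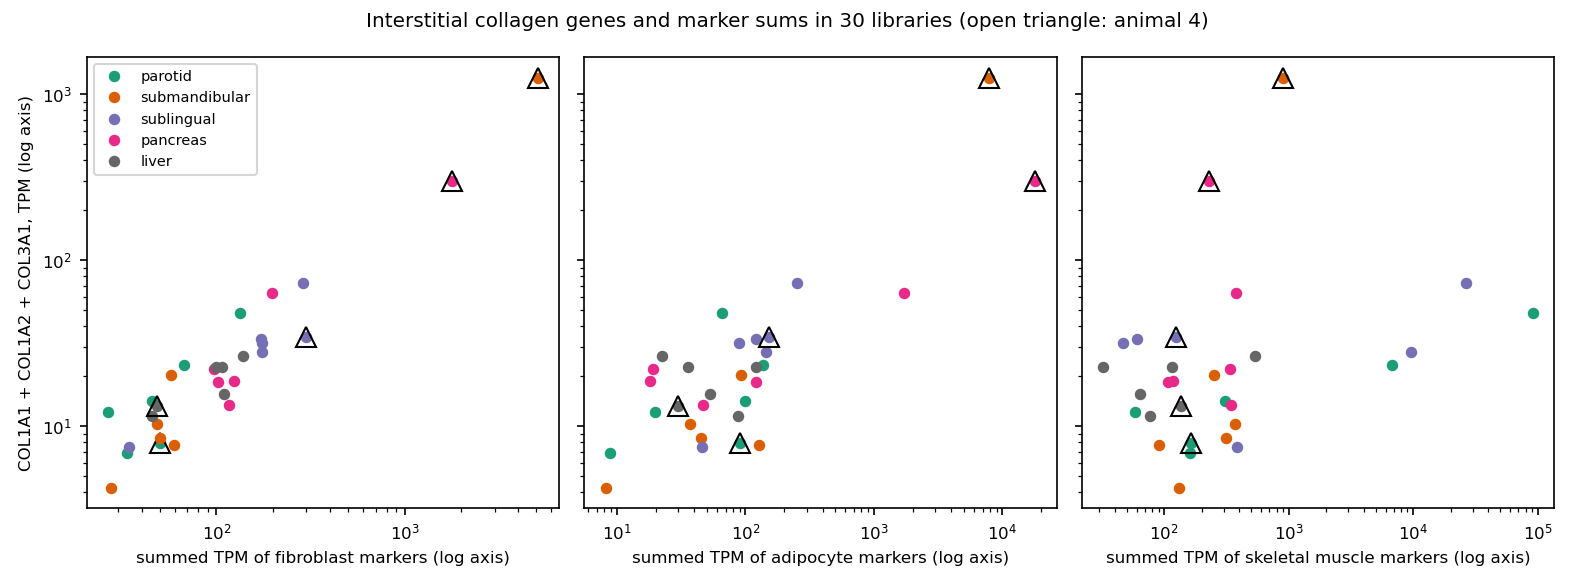
Summed TPM of COL1A1, COL1A2 and COL3A1 (vertical log axis) against the summed TPM of fibroblast, adipocyte and skeletal muscle markers (horizontal log axes) in 30 libraries; colours are tissues and open triangles animal 4. The submandibular gland and pancreas of animal 4, at 1261 and 301 TPM on the vertical axis, lie highest and also hold the highest fibroblast and adipocyte sums.

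The proteins that fold, process and bind collagen were read from lists of partner genes, against liver. Values and counts are given in the order parotid, submandibular, sublingual, pancreas. Of all genes, 4.61%, 5.68%, 12.8% and 6.76% were higher than in liver and 53.4%, 45.1%, 18.7% and 23.6% lower, and the median differences were -0.84, -0.70, -0.10 and -0.36. Leaving out animal 4, the shares were 5.17%, 5.86%, 15.5% and 7.52% higher and 63.2%, 68.5%, 21.8% and 41% lower. With trimmed-mean scaling they were 20%, 20.8%, 20.4% and 15.2% higher and 23.5%, 25.9%, 23.7% and 21.6% lower.

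Of 18 tested genes for chain modification and folding, 1, 2, 3 and 2 were higher and 9, 7, 3 and 3 lower, which is near or below the shares of all genes that were lower. The list's median differences were -0.94, -0.56, -0.34 and -0.16. Without animal 4, of 17 tested, 1, 1, 3 and 2 were higher and 12, 13, 5 and 8 lower, and with trimmed-mean scaling 2, 3, 4 and 5 were higher and 4 lower in each tissue. P3H1, a prolyl 3-hydroxylase, was lower in parotid (-2.31, limma adjusted p = 4.84e-05), submandibular gland (-2.08, 0.000196) and sublingual gland (-1.34, 0.0135), while its relative P3H3 was higher there (1.17, 1.07 and 2.18, limma adjusted p = 0.0245, 0.0419 and 0.000257). Without animal 4 these were -2.24, -2.61 and -1.18 for P3H1 and 1.13, 0.65 and 2.46 for P3H3, all past the limma threshold. SERPINH1, the collagen chaperone HSP47, had differences of -0.80, -0.32, 0.45 and 1.09, none past the threshold with 6 animals and no further scaling. It was lower in parotid (-0.96, limma adjusted p = 0.0246) and submandibular gland (-1.35, limma adjusted p = 0.00237) without animal 4, and higher in pancreas with trimmed-mean scaling (1.48, limma adjusted p = 0.00645).

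Of 9 tested genes for propeptide processing and crosslinking, 6, 5, 4 and 4 were lower than in liver and the others did not pass, with median differences of -1.37, -1.12, -0.67 and -1.21. The lower counts were 5, 6, 4 and 4 of 7 without animal 4 and 6, 5, 4 and 4 of 9 with trimmed-mean scaling. The higher counts were 0, 0, 1 and 0 without animal 4, the 1 being LOXL1. With trimmed-mean scaling they were 1, 2, 1 and 0: LOXL2 in parotid, LOXL1 and LOXL2 in submandibular gland and LOXL1 in sublingual gland. BMP1, which cuts the C-propeptide, was lower by -3.57, -3.08, -2.37 and -2.73 (limma adjusted p 5.74e-06, 4.86e-05, 0.00118 and 0.000297). PCOLCE2, an enhancer of that cut, was lower by -3.63, -2.61, -2.39 and -2.66, and TGM2, a crosslinking transglutaminase, by -2.37, -2.24, -2.03 and -2.72, all past the limma threshold. PCOLCE2 and BMP1 were at 31.7 ± 75.0 and 9.05 ± 20.8 TPM in submandibular gland (SD, n = 6), where animal 4 was the exception to the direction. Without it they differed from liver there by -3.92 and -3.87.

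Among 9 tested small leucine-rich proteoglycans, which coat fibrils, 1 was higher than in liver in parotid, submandibular gland and pancreas each and 2 lower in each of the 4 tissues, with 1, 5, 2 and 2 higher with trimmed-mean scaling. Without animal 4, of 8 tested, 1 was higher in each tissue and 3, 3, 2 and 1 were lower. BGN was lower in all 4 tissues (-3.55, -3.32, -2.62 and -2.69, limma adjusted p 9.86e-07, 3.18e-06, 9.48e-05 and 7.87e-05), and by -3.81, -4.03, -2.84 and -3.31 without animal 4. PRELP was higher in parotid (1.48, limma adjusted p = 0.0243) and submandibular gland (2.88, 0.000127), by 1.43 and 2.24 without animal 4.

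Of 13 tested basement membrane partners, 2, 3, 4 and 4 were higher and 2, 2, 1 and 1 lower than in liver, with median differences of 0.04, 0.42, 0.92 and 1.06. Without animal 4 the counts were 3, 4, 7 and 5 higher and 2, 4, 1 and 1 lower, and with trimmed-mean scaling 5, 7, 6 and 10 higher and 1 lower in each. The laminin chain genes LAMA3 and LAMA5 were higher in all 4 tissues (LAMA3 by 1.51, 1.38, 2.27 and 0.88) and NID1, which links laminin to type IV collagen, was lower in all 4 (-2.47, -1.84, -2.18 and -1.98). Without animal 4 LAMA3 was higher by 1.39, 1.36, 2.37 and 0.74 and NID1 lower by -2.61, -2.97, -2.23 and -2.53.

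Of 6 tested receptors, 1 was higher and 2 were lower in each tissue, with 3 higher in submandibular gland with trimmed-mean scaling. The collagen-binding kinase gene DDR1 was higher in all 4 (1.25, 1.01, 2.38 and 1.46, and 1.23, 1.04, 2.33 and 1.62 without animal 4), and the integrin chains ITGA1 and ITGA10 were lower in all 4. Without animal 4, ITGA1 did not meet the expression filter. Of 9 tested genes for collagen breakdown and its inhibitors, 1 passed in parotid, 1 in sublingual gland and 1 in pancreas, while with trimmed-mean scaling 3, 6, 4 and 5 were higher. Without animal 4, 1 of 8 was higher in parotid, 4 in sublingual gland and 1 in pancreas, and 2 each were lower in parotid, submandibular gland and pancreas. The protease gene CTSK was lower in parotid (-1.79, limma adjusted p = 0.0129), and by -1.71 without animal 4, a call lost with trimmed-mean scaling (-0.67, limma adjusted p = 0.153). The inhibitor gene TIMP1 was higher in sublingual gland (3.07, limma adjusted p = 0.00723), and by 3.70 without animal 4. Its relative TIMP4 was higher in pancreas by 1.72 (limma adjusted p = 0.0471), and by 0.76 without animal 4 (limma adjusted p = 0.0445).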

How the data were processed

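The authors deposited a table of TPM values with 1 column per library, and every column sums to the same total, so depth is unknown. Kallisto is named in the submitters' processing notes; its version, transcriptome and genome build are not given in the sources used here. No column of per-sample values was left unused (0). The members and all lists were chosen with earlier results of these data known. Each tissue had 6 libraries, 1 per animal.

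Differences on log2(TPM + 1), which understates changes of low genes, were fitted in R 4.3.3 using limma 3.58.1. The model had tissue and animal as terms over all 30 libraries. A gene was tested if 6 or more libraries reached 1 TPM, which held for 13550. P-values are two-sided, adjusted by Benjamini-Hochberg over all genes in each comparison, with a threshold of 0.05. One spread is shared by all tissues. The script was tested on simulated data. Sums and ratios were computed in Python 3.11.15 with pandas 2.3.3. Animal numbers pair the libraries, since same-numbered samples are the same animal; the mean correlation of deviations from tissue means was 0.161 within an animal and -0.0186 between animals. The highest correlation between libraries was 0.979 and 0 pairs were identical.

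Alternatives were no animal block, only the 12 libraries compared, trimmed-mean scaling (unweighted, 30% and 5% trimmed), a pseudocount of 0.1, no filter, a filter of 5 TPM, and each animal left out. Every member could be named; values are given in full for those whose mean reached 30 TPM in 1 tissue and for the 2 largest called changes each way per comparison. From each partner list up to 4 genes with the largest called change were eligible per comparison. SERPINH1 and ACAN were added after their values were seen. Sequences and coordinates are not used here.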

Additional observations from a re-analysis of the deposited data

Results flagged for a closer look

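For 13 members in 5 tissues, 65 sets of 6 libraries, the gap between the highest or lowest library and its neighbour was divided by the range of the set, both on the log2(TPM + 1) scale; the values below are in TPM. It was above Dixon's critical value in 19 sets, and 11 of the 19 were the pancreas or submandibular gland of animal 4. For independent sets 3.25 would be expected by chance, but these sets share libraries. COL6A2, COL1A2, COL1A1, COL6A1 and COL3A1 also entered the 13 only through a mean of at least 30 TPM, which none reached without animal 4. The count of 19 therefore cannot be set against 3.25.

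In the submandibular gland of animal 4 these were COL6A2 at 595 TPM, COL1A2 at 530, COL1A1 at 489, COL6A1 at 445, COL3A1 at 243, COL14A1 at 66.3, COL15A1 at 15.3 and COL16A1 at 13.9 TPM, where the next highest values were 9.31, 7.54, 7.30, 7.06, 5.47, 2.94, 1.63 and 1.21 TPM. In its pancreas they were COL15A1 at 25.9, COL16A1 at 17.5 and COL14A1 at 14.8 TPM, with 8.48, 2.15 and 2.38 TPM next. Both libraries had the adipocyte and fibroblast marker sums given above, and the part of those cells was not tested.

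The pancreas of animal 3 was high in COL18A1 (44.4 TPM, next 20.6) and COL27A1 (24.7 TPM, next 5.65), and its hepatocyte marker sum of 5005 TPM was the highest of that tissue. The sublingual gland of animal 6 was low in COL6A2 (6.30 TPM, next 29.9) and COL6A1 (1.46 TPM, next 17.7). COL15A1 was high in the parotid of animal 6 (5.21 TPM, next 1.31) and the sublingual gland of animal 5 (6.02 TPM, next 1.01). COL27A1 was high in the parotid of animal 4 (2.13 TPM, next 1.36) and COL9A1 in the submandibular gland of animal 6 (1.60 TPM, next 0.438).

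For 2 of 130 gene and comparison pairs, every female differed in one direction and every male in the other, both for pancreas against liver. The mean log2 difference of COL1A2 was 1.48 in the 4 females and -0.04 in the 2 males, and that of COL6A1 was 1.07 and -0.45. These differences between the sexes were not tested, and the females include animal 4. In that animal COL6A1 was at 191 TPM in pancreas and 12.4 in liver, and COL1A2 at 97.5 and 5.33 TPM. In animals 1, 2 and 3 COL6A1 was at 12.7, 9.42 and 31.6 TPM in pancreas and 12.3, 9.06 and 24.5 in liver. COL1A2 was there at 7.38, 5.88 and 20.8 TPM in pancreas and 3.99, 5.76 and 8.66 in liver.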

How the results depend on the processing

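The changes of COL18A1 and COL27A1 against liver kept their direction and their side of the threshold in all 4 tissues under every alternative run. The numbers of called collagen genes changed more. With a filter of 5 TPM, 9 members were tested and 2 were called in parotid, 3 in submandibular gland, 2 in sublingual gland and 3 in pancreas against liver, 1 in sublingual gland against pancreas, and 1 each in parotid and submandibular gland against sublingual gland. With only the 12 libraries compared, 3 and 4 were called in submandibular and sublingual gland against liver, 5 in submandibular gland against pancreas and 2 in submandibular against sublingual gland. Trimmed-mean scaling gave 11 in submandibular gland and 11 in pancreas against liver and 9 in sublingual gland against pancreas. Without animal 4 and with that scaling, an alternative chosen after seeing the data, 15 were called in parotid against liver (11 higher and 4 lower), 6 in submandibular gland against pancreas (2 higher and 4 lower) and 1, higher, in parotid against submandibular gland.

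Leaving out each animal in turn gave 5 to 7 calls in parotid, 4 to 11 in submandibular gland, 5 to 8 in sublingual gland and 5 to 6 in pancreas against liver, 2 to 4, 1 to 8 and 3 to 6 in the glands against pancreas, and 0 to 1, 3 to 6 and 3 to 12 in parotid against submandibular gland, parotid against sublingual gland and submandibular against sublingual gland.

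Without the replicate block, which here is the animal, the calls were 7, 6, 9 and 6 against liver, 4, 3 and 5 against pancreas and 0, 6 and 6 between glands; the collagen call lost was COL15A1 in submandibular gland against liver (limma adjusted p = 0.0551), and of the partner genes named LAMA5 there (0.0546) and TIMP4 in pancreas (0.101) were lost too.

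Differences that changed sign were outside the threshold with 6 animals and no further scaling. They belonged to interstitial genes and to COL27A1 in submandibular against sublingual gland, which was 0.14 with trimmed-mean scaling and 0.16 without animal 4 as well. Trimmed-mean scaling gave 0.21, 0.40, 0.27 and 0.57 for COL1A2, COL1A1, COL6A1 and COL3A1 in submandibular against sublingual gland, and 0.47 and 0.75 for COL6A1 and COL3A1 in submandibular gland against liver, the latter 0.034 without animal 4 as well. COL6A2 in pancreas against liver was -0.019 both with a pseudocount of 0.1 and with scaling and no animal 4. Leaving out 1 animal in turn, the lowest value always without animal 4, gave -0.66 to 0.26 for COL6A2, -0.091 to 0.79 for COL6A1 and -0.19 to 0.80 for COL3A1 in pancreas against liver, -0.90 to 0.66 for COL1A2, -0.38 to 1.15 for COL1A1 and -1.13 to 0.31 for COL3A1 in submandibular gland against liver, and -1.54 to 0.00058 for COL1A2, -1.38 to 0.25 for COL1A1 and -1.12 to 0.37 for COL3A1 in submandibular against sublingual gland. Without animal 4, COL3A1 in submandibular gland against liver (limma adjusted p = 0.0292) and COL1A2, COL1A1 and COL3A1 in submandibular against sublingual gland (0.00394, 0.0153 and 0.0344) were past the threshold. The causes were not tested.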
